A study of Rattus norvegicus with 24 samples.

Results

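The apolipoprotein genes Apoa1, Apoa2, Apoa4, Apoa5, Apob, Apoc1, Apoc2, Apoc3, Apoe and Apoh were described in rat liver, with Apoa5 and Apoa1 set against the other 8. The members were chosen by gene symbol, with earlier results of these libraries known, so their contrasts between groups are given as values with intervals and without p-values. All 10 members were found among 15319 genes by their Entrez gene ID, and all 10 passed the filter on low counts. The libraries came from livers of 24 Sprague-Dawley rats, an outbred stock, with 6 animals in each of 4 groups. Sham females and PCB 52 females entered the exposure phase at 42 days of age, and sham males and PCB 52 males at 39 days. The exposed groups breathed air passed over beads coated with PCB 52, a polychlorinated biphenyl, in a nose-only system (12 L/min of air), in sessions of 4 hours on each of 28 days. The design asks how inhaled PCB 52 alters liver gene expression in adolescent rats of each sex. Both sham and exposed animals were trained in the nose-only apparatus and ate the same stock diet. Each library was 1 animal, and nothing was pooled.

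Apolipoproteins are the protein part of lipoprotein particles, which carry cholesterol and triglyceride through blood. Liver secretes very low density lipoprotein (VLDL) built on apolipoprotein B and supplies most proteins of high density lipoprotein (HDL). The A and C apolipoproteins and apolipoprotein E move between particles, and they activate or inhibit the plasma lipases and bind the receptors that clear particle remnants. Several of these genes lie side by side in the genome, and in rat liver many secreted proteins differ between the sexes.

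Libraries held 6994832 to 9185511 counts, and levels are given as counts scaled to a library total of 1e+06 (CPM), a unit that does not correct for gene length, so levels of different genes are not compared. The 12 hepatocyte markers were all detected and summed to between 120357 and 160225 CPM in a library. Animals of 1 group also differed along a shared axis that no label names, here called the library axis. It is the first principal component after group means are removed and carried 16.7% (females) and 19.8% (males) of the variance left. Animals 13 to 16, all exposed, scored between 8.31 and 12.7 on it, and sham animals between −7.12 and 6.98. With group means removed, scores of neighbouring animal numbers were often alike. Animals 11 and 12 were at 9.10 and 7.88, and animals 19 and 20 at −8.35 and −9.18. Signs were opposite in animals 3 and 4, 5 and 6, and 9 and 10. Sex, start age and count table go together in this design and cannot be told apart. In these bulk samples, fewer cells of a type and less RNA per cell cannot be told apart either.

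Together the 10 genes took 3.61% ± 0.36 (SD, n = 6) of all counts in sham females, 3.16% ± 0.32 in PCB 52 females, 3.74% ± 0.19 in sham males and 3.38% ± 0.45 in PCB 52 males. Apoe made up much of that spread. Without it the share was 1.88% ± 0.10, 1.77% ± 0.06, 1.97% ± 0.07 and 1.94% ± 0.06 in the same order.

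**Figure D1:**
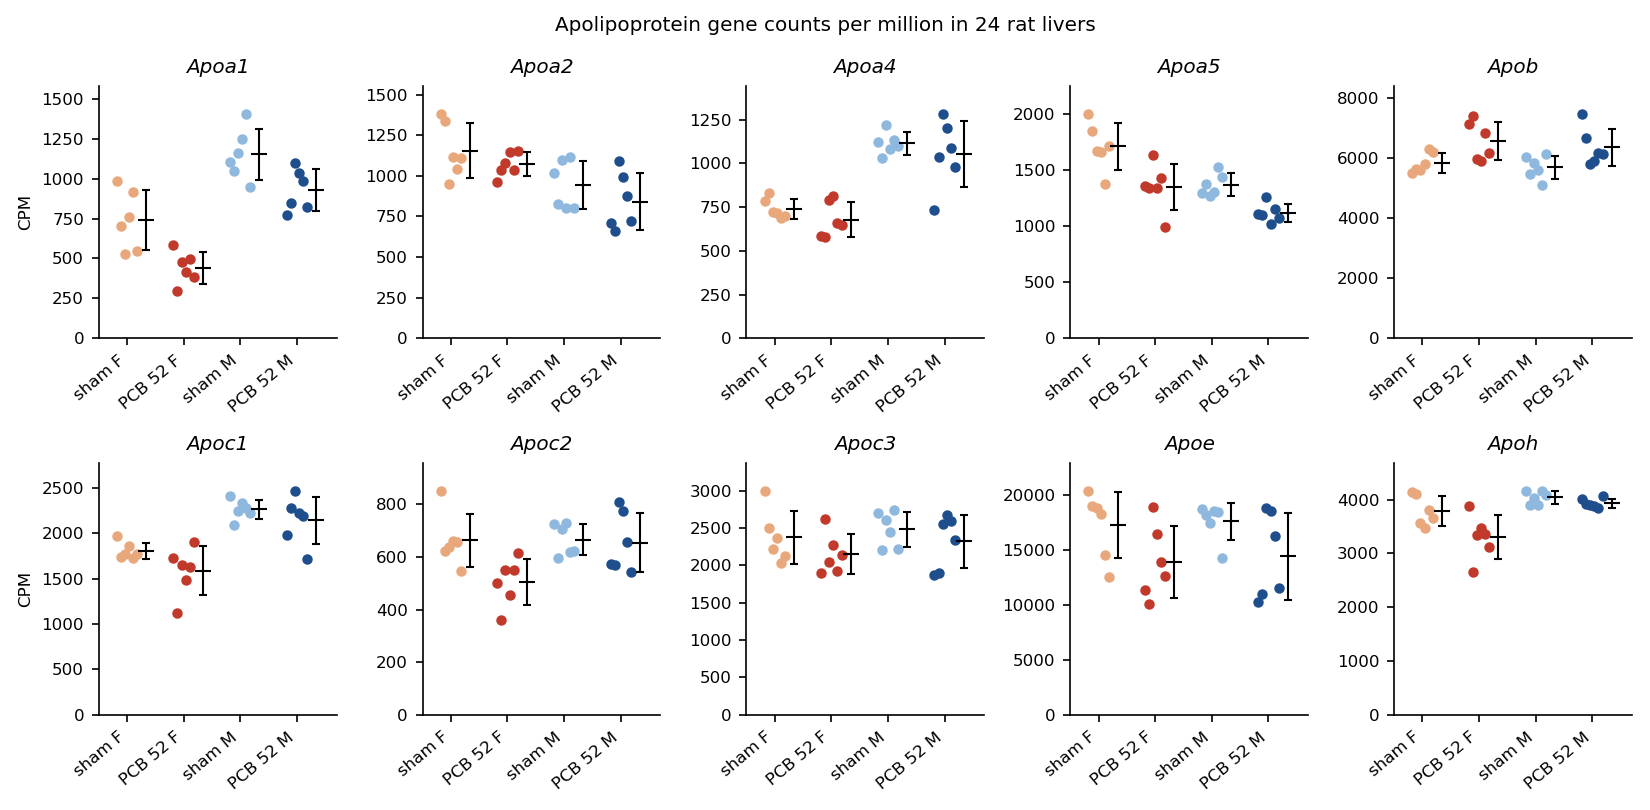
CPM of each of the 10 genes in every library (points) of the 4 groups, with the group mean and SD (bars, n = 6) beside them and axes that start at 0. Apoa1 was lower in females (F) than in males (M) and had its lowest mean, 442 CPM, in PCB 52 females, while Apoa5 was higher in females and had its lowest mean, 1118 CPM, in PCB 52 males.

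Apoa1 (Entrez gene ID 25081) encodes apolipoprotein A-I, the main structural protein of HDL and the activator of the cholesterol-esterifying enzyme LCAT. Its lowest, median and highest levels were 526.4, 729.6 and 988 CPM in sham females and 296, 446 and 582 CPM in PCB 52 females. In males they were 948, 1131 and 1404 CPM in sham and 770.1, 917 and 1098 CPM in PCB 52 animals. Of the 6 exposed females 5 lay below every sham female, and of the 6 exposed males 3 lay below every sham male, so the ranges overlapped in each sex.

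Group means of Apoa1 were 739 ± 188 CPM in sham females and 442 ± 99.6 CPM in PCB 52 females (SD, n = 6), a log2 fold of −0.74 ± 0.19 (SE) with a 95% interval from −1.15 to −0.34. In males the means were 1151 ± 160 and 926 ± 132 CPM, a log2 fold of −0.30 ± 0.11 with an interval from −0.52 to −0.07. Of 10251 genes, 0.663% had a larger absolute log2 fold than Apoa1 in females. In males that share was 8.25%. For Apoa5 the shares were 9.52% in females and 10.3% in males. They are a description, since the members were picked with the exposure contrast known. Without animals 13 to 16 the log2 fold of Apoa1 was −0.75 in females and −0.19 in males, and with each library's score on the library axis in the fit it was −0.68 and −0.16. The score in that fit kept its group means, so it could take up part of the exposure difference. Subtracting the male from the female response gave −0.45 ± 0.23, and its interval, from −0.92 to 0.03, included 0.

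Apoa5 (Entrez gene ID 140638) encodes apolipoprotein A-V, a protein made in liver that promotes lipolysis of triglyceride-rich particles by lipoprotein lipase. Its lowest, median and highest levels were 1380.2, 1692 and 2001 CPM in sham females and 995 CPM, 1347 CPM and 1634 CPM in PCB 52 females. In males they were 1266, 1337 and 1532 CPM in sham and 1018, 1103 and 1258 CPM in PCB 52 animals. All 6 exposed males lay below every sham male, and 4 of 6 exposed females lay below every sham female.

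The Apoa5 means of 1713 ± 209 CPM in sham and 1349 ± 207 CPM in PCB 52 females gave a log2 fold of −0.34 ± 0.11 (interval −0.57 to −0.12). The male means of 1368 ± 102 and 1118 ± 81.5 CPM gave −0.27 ± 0.07 (interval −0.42 to −0.12). The responses of the sexes differed by −0.07 ± 0.13, with an interval from −0.33 to 0.19. Averaged over both sexes, the response was −0.31 ± 0.06 for Apoa5 and −0.52 ± 0.12 for Apoa1, with intervals from −0.44 to −0.17 and from −0.76 to −0.28.

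Set against the mean log2 CPM of the other 8 members in the same library, Apoa1 differed between exposed and sham animals by −0.57 in females and −0.23 in males on the log2 scale. For Apoa5 these differences were −0.18 in females and −0.20 in males. Some of the 8 differed about as much as Apoa5 on this measure. For each of the 8 the mean includes the gene itself, which makes its own difference somewhat smaller. Apoc2 was at −0.23 in females and 0.05 in males, Apoe at −0.16 and −0.24, and Apob at 0.33 and 0.25. Relative to the 8, Apoa1 of exposed animals lay below every sham library in 4 of 6 females and 5 of 6 males, and Apoa5 in 2 of 6 females and 3 of 6 males. Both genes had lower means in exposed livers by CPM and relative to the rest of the family. By CPM the ranges of exposed and sham animals overlapped except for Apoa5 in males, and on the second measure they overlapped for both genes in each sex. The share of all genes with ranges apart was not computed for any contrast. Separate ranges of a member are therefore only a description.

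Apoe (Entrez gene ID 25728), the ligand by which remnant particles bind receptors of the LDL receptor family, varied widely between animals of 1 group. Its lowest, median and highest levels were 12595, 18573 and 20437 CPM in sham females and 10098, 13314 and 18926 CPM in PCB 52 females. In males they were 14331, 18322 and 18753 CPM in sham and 10251, 13962 and 18839.6 CPM in PCB 52 animals. Each exposed group spanned levels from below all sham animals to within or above the sham range.

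The log2 fold of Apoe was −0.32 ± 0.15 in females (interval −0.63 to −0.01) and −0.27 ± 0.17 in males (interval −0.63 to 0.09). Without animals 13 to 16 it was −0.17 in females and −0.08 in males, and with each library's score on the axis in the fit −0.10 and −0.09. Apoa5 moved little under the same settings, at −0.35 and −0.25 without those animals and −0.31 and −0.26 with the score. Here too the score kept its group means and could take up part of the exposure difference. Macrophages also make Apoe, and the 11 measured Kupffer cell and macrophage markers summed to 833 to 1094 CPM in sham females and 737 to 984 CPM in PCB 52 females. In males these sums ran from 628 to 772 CPM in sham and from 653 to 751 CPM in PCB 52 animals. None of the 11 markers was at 0 in all libraries, and their part in the Apoe values was not tested.

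Apob (Entrez gene ID 54225), the structural protein of VLDL and of its remnants, was the only member with a higher mean in exposed animals of each sex. Its lowest, median and highest levels were 5515, 5729 and 6299 CPM in sham females and 5903, 6499 and 7395 CPM in PCB 52 females. In males they were 5101, 5731 and 6129.5 CPM in sham and 5806, 6165 and 7474 CPM in PCB 52 animals. Of 6 exposed animals, 3 females and 4 males lay above every sham animal of their sex. The log2 fold was 0.18 ± 0.10 in females (interval −0.02 to 0.38) and 0.17 ± 0.07 in males (interval 0.02 to 0.33). Without animals 13 to 16 it was 0.09 and 0.11.

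Apoc2 (Entrez gene ID 292697), the cofactor that lipoprotein lipase needs, had means of 662 ± 102 CPM in sham and 504 ± 88.6 CPM in PCB 52 females, a log2 fold of −0.39 ± 0.14 (interval −0.67 to −0.10). In males the means were 666 ± 59.0 and 654 ± 113 CPM, a log2 fold of −0.01 ± 0.10 (interval −0.23 to 0.21) that was 0.09 without animals 13 to 16. The female response minus the male one was −0.38 ± 0.18 (interval −0.75 to −0.01). The highest sham female, replicate 1 at 852 CPM, lay apart from the other 5, which ran from 546 to 659 CPM. Without that animal the female log2 fold was −0.29.

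The exposure intervals of the other 5 members included 0 in each sex. These are Apoa2 (Entrez gene ID 25649), an HDL protein, Apoa4 (25080), which rat liver makes as well as intestine, Apoc1 (25292), which slows remnant uptake, Apoc3 (24207), an inhibitor of lipoprotein lipase and of particle clearance, and Apoh (287774), a plasma glycoprotein that binds anionic phospholipids. Their log2 folds ran from −0.19 for Apoh to −0.10 for Apoa2 in females and from −0.15 for Apoa2 to −0.02 for Apoh in males. The male values of Apoa4 and Apoc3 changed sign, to 0.06 each, without animals 13 to 16.

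**Figure D2:**
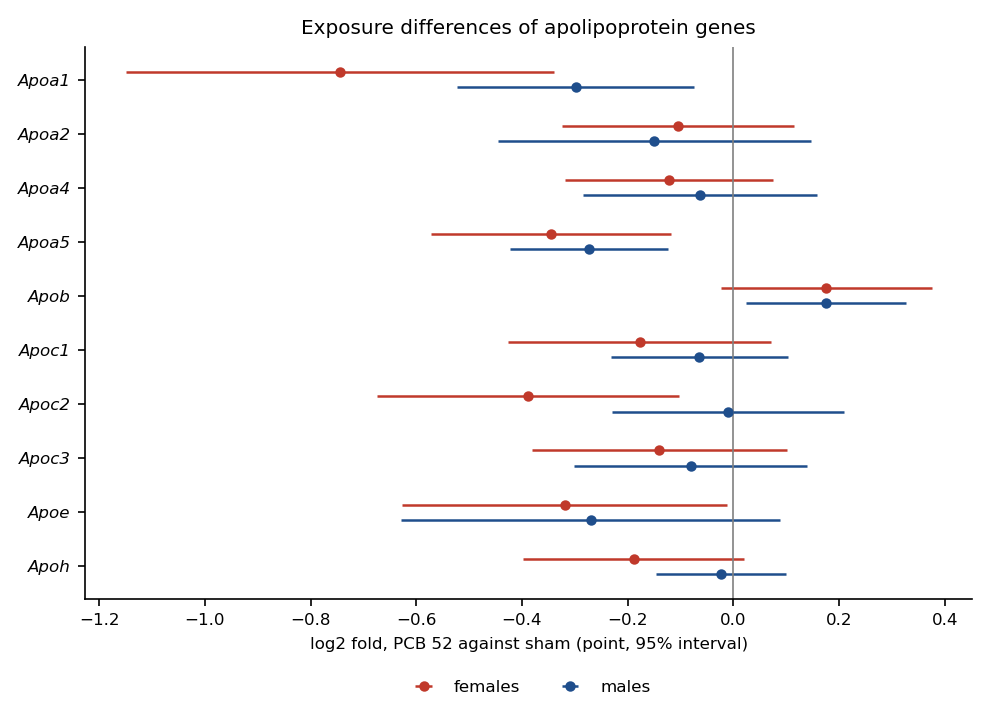
Log2 fold of PCB 52 against sham for each gene (points) with its 95% interval (lines), females and males apart. The point lies below 0 for every gene but Apob, and the intervals lie wholly below 0 in both sexes for Apoa1, at −0.74 and −0.30 (−0.75 and −0.19 without animals 13 to 16), and Apoa5, at −0.34 and −0.27.

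By count, 9 of 10 members had a negative log2 fold in each sex, with a median of −0.18 in females and −0.07 in males, beside a median of 0.00 over all genes tested (0.00323 and 0.00344). Of all genes, 0 of 10251 in females and 0 of 10180 in males passed edgeR's quasi-likelihood test at an adjusted p of 0.05, which is 0% called in each sex, and 0 of 10 members did. The difference of the responses between the sexes and the average of both responses also gave 0% called of 10535 genes. At an unadjusted p under 0.05 there were 1021 genes in females, 585 in males, 239 for the difference and 1625 for the average. DESeq2 called 28, 1, 0 and 105 genes in the same order, with Apoa1 among them in females and Apoa1 and Apoa5 in the average, and limma-voom called 0 in each. These counts are a description, since the members were picked with the exposure contrast known.

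More genes were called between the sexes than between the exposure groups. Among sham animals 2139 of 10535 genes passed, 20.3% called, and Apoa5 was higher in females and Apoa1, Apoa4 and Apoc1 were lower, 4 of 10 members. Among PCB 52 animals 2093 passed, 19.9% called, and Apoa1, Apoa4, Apoc1, Apoc2 and Apoh were lower in females, 5 of 10 members, with 0 higher.

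Apoa1 had a log2 fold of −0.66 ± 0.16 between sham females and sham males (interval −0.99 to −0.32) and of −1.10 ± 0.16 between the exposed sexes (interval −1.44 to −0.76). All 6 exposed females lay below every exposed male, and 5 of 6 sham females lay below every sham male. The order of its group means was PCB 52 females, sham females, PCB 52 males and sham males. Sham females and PCB 52 males overlapped, from 526.4 to 988 CPM against 770.1 to 1098 CPM.

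Apoa4 averaged 740.0 ± 56.4 CPM in sham females and 1114 ± 63.9 CPM in sham males, with no overlap, and 679 ± 99.2 and 1054 ± 191 CPM in the exposed groups. The log2 folds were −0.62 ± 0.10 in sham and −0.67 ± 0.10 in PCB 52 animals. Apoc1 averaged 1804 ± 93.2 CPM in sham females and 2263 ± 107 CPM in sham males, again with no overlap, and its log2 folds were −0.35 ± 0.10 and −0.46 ± 0.10. Both genes were called in each contrast. How many of all genes show no overlap between the sexes was not computed. Of the genes that mark enterocytes, the other main source of Apoa1 and Apoa4, 6 were in the tables. Their summed level ran from 127 to 164 CPM in sham females and from 160.2 to 272 CPM in sham males, with Alpi at 0 in all libraries. Cdh17, the liver-intestine cadherin, averaged 0.69 CPM in sham females and 55.8 CPM in sham males. Anpep, which hepatocytes also express, averaged 142 and 164 CPM. Of the 6, only these 2 passed the filter on low counts. The part of these markers in the sex differences was not tested.

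Apoa5 ran the other way. Its log2 fold between females and males was 0.30 ± 0.09 in sham animals (interval 0.12 to 0.49), where it was called, and 0.23 ± 0.09 in PCB 52 animals (interval 0.04 to 0.42), where it was not. The call in sham animals was lost when sham female replicate 1 was left out, at 0.24. Of 6 sham females 5 lay above every sham male. Apoa5 was called in the exposed contrast without PCB 52 male replicate 3 (0.27) or PCB 52 female replicate 6 (0.29). Apoa2 had a log2 fold of 0.27 ± 0.12 in sham and 0.31 ± 0.12 in PCB 52 animals and was not called in either. In the exposed contrast it was called with the axis score in the fit (0.34) and without PCB 52 male replicate 3 (0.40).

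Apoc2 had a log2 fold of −0.03 ± 0.13 in sham and −0.41 ± 0.13 in PCB 52 animals, and Apoh had −0.12 ± 0.08 and −0.28 ± 0.08. Both were called in the exposed contrast alone, but the test of the difference between the contrasts is that of the exposure responses, which called 0 genes. The call of Apoc2 was lost without animals 13 to 16 and when PCB 52 female replicate 2 or 4 or PCB 52 male replicate 3 or 4 was left out, at log2 folds of −0.41, −0.32, −0.37, −0.34 and −0.35. Apob, Apoc3 and Apoe had intervals that included 0 in both contrasts, and Apob was at 0.01 in each.

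**Figure D3:**
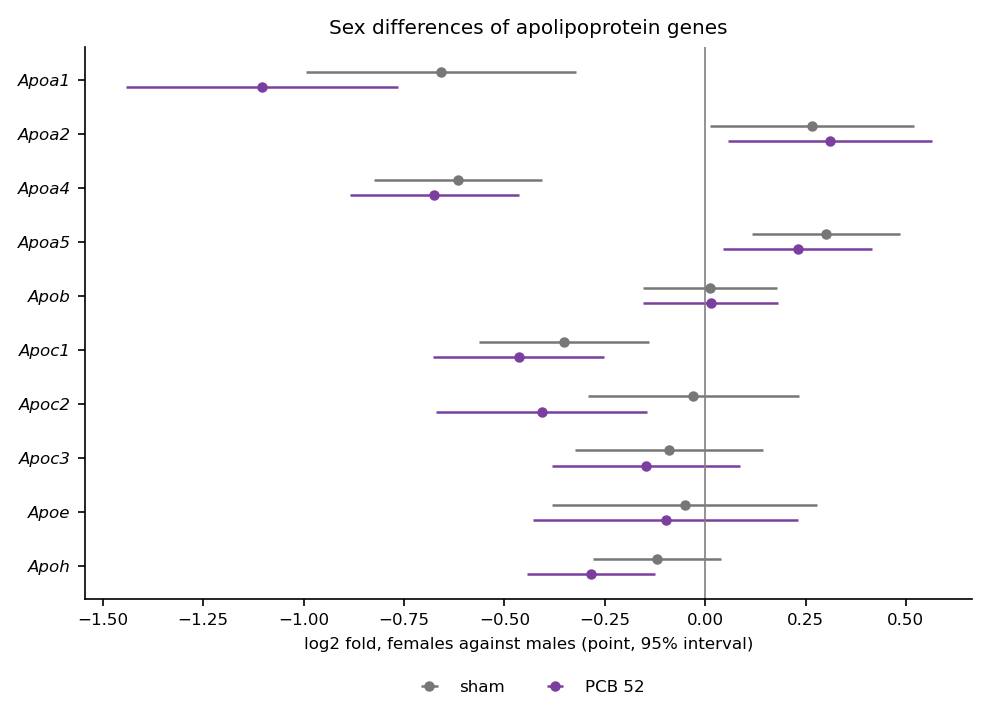
Log2 fold of females against males for each gene (points) with its 95% interval (lines), in sham and in PCB 52 animals. Apoa1, Apoa4 and Apoc1 lie below 0 in both, Apoa5 and Apoa2 lie above 0 in both, and Apob lies at 0.01.

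Members that differ between the sexes in opposite directions are neighbours on the chromosome. By RefSeq's annotation of GRCr8, Apoa1, Apoc3, Apoa4 and Apoa5 follow each other on chromosome 8 between Sik3 and Zpr1, and Apoc2, Apoc4, Apoc1 and Apoe follow each other on chromosome 1 between Clptm1 and Tomm40. Within the first cluster Apoa1 and Apoa4 were lower in females, Apoc3 was not called in either contrast, and Apoa5 was higher in sham females. No other gene in that annotation overlaps a member. To show the start regions of the last pair, which differ in opposite directions, the 250 bases before the transcription start from RefSeq (GRCr8) are given 5′ to 3′, with motif matches in capitals. The Apoa5 window is chr8:55457621-55457870 on the plus strand, and the Apoa4 window is chr8:55435529-55435778 on the plus strand.
Apoa5: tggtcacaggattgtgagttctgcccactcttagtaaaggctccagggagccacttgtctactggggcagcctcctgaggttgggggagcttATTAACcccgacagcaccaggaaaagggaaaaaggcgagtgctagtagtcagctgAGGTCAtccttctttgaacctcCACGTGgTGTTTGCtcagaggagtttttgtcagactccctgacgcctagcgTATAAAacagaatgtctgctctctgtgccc
Apoa4: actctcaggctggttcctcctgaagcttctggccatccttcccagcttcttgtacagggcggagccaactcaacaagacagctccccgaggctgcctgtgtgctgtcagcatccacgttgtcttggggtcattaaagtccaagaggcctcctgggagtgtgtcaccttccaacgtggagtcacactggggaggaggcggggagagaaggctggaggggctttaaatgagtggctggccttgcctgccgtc

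The motifs were searched on both strands as plain letters. In the Apoa5 window the TATA box TATAAA begins 30 bases before the start, the forkhead core TGTTTGC 74, the E-box CACGTG 81, the nuclear receptor core AGGTCA 103 and the HNF1 core, as ATTAAC on the gene's strand, 158 bases before it. None of these motifs overlaps another in that window, and the Apoa4 window holds none of them. Of 33469 RefSeq windows of the same length, 12.9% held TATAAA, 7.20% a forkhead core (TGTTTAC or TGTTTGC), 5.59% CACGTG, 14.1% AGGTCA and 6.45% the HNF1 core (GTTAAT). A match describes letters and not a bound site. The table also holds windows for Apoc1, Apoc2, Apoe and Apoh, 10 windows of 6 members in all, and a second Apoa5 start. Before that second start TATAAA begins 184 bases away, TGTTTGC 228 and CACGTG 235, with another forkhead core, GCAAACA, at 36. Its window has no match to AGGTCA or the HNF1 core, so the layout given for Apoa5 depends on the start chosen.

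Within groups, some of the members varied together. Levels were compared as log2 CPM with each group's mean removed, so that differences between groups play no role, over 24 libraries and 45 pairs, with permutation of libraries within groups and p-values adjusted over the 45 pairs. By Pearson's r 17 pairs passed, 15 of them positive, and 16 of the 17 also passed by Spearman's rho. All these values share a library total, and 1 very abundant member affects it.

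The pair Apoc1 and Apoc2, neighbours on chromosome 1, had r = 0.85 and rho = 0.84 (adjusted permutation p = 0.000225 for each). Apoa4 and Apoe had r = 0.82 and rho = 0.85 (adjusted permutation p = 0.000225 for each), and Apoa2 and Apoc3 had r = 0.78 and rho = 0.80 (adjusted permutation p = 0.00060 and 0.00075). Without the 2 libraries farthest from the median on the first gene, these r were 0.78, 0.81 and 0.76. Apob ran against Apoa4 and Apoe, with r of −0.68 and −0.68 and rho of −0.62 and −0.62 (adjusted permutation p = 0.0054 for each r, 0.0204 and 0.0163 for rho). Without the 2 farthest libraries these r were −0.58 and −0.62. Without animals 13 to 16 they were −0.39 and −0.47 and neither passed (adjusted permutation p = 0.184 and 0.0999).

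Apoa5 passed with none of its 9 partners, its r running from −0.28 with Apob to 0.35 with Apoe. Apoa1 passed with 5, with the C apolipoproteins Apoc1 (r = 0.61) and Apoc2 (r = 0.69) and with Apoh (r = 0.71), Apoe (r = 0.52) and Apoa2 (r = 0.50). Without animals 13 to 16 only Apoc2 of these 5 passed with Apoa1 by r (r = 0.63, adjusted permutation p = 0.0302). By rho it did not (rho = 0.59, adjusted permutation p = 0.067). By sex, Apoa1 with Apoh was at r = 0.83 in the 12 females and 0.14 in the 12 males. The r of Apoa1 with Apoa5, both of which were lower in exposed animals, was 0.29 (rho 0.37, adjusted permutation p = 0.356 and 0.176). Among the other members of the chromosome 8 cluster, Apoa4 with Apoc3 passed over 24 libraries (r = 0.55), and Apoa1 with Apoc3 (r = 0.30) and Apoa1 with Apoa4 (r = 0.42) did not. In the 12 males alone these 3 pairs all passed, at r of 0.77, 0.81 and 0.72 (adjusted permutation p = 0.0203, 0.0203 and 0.0286). In the 12 females alone they were at 0.23, 0.02 and 0.27 and did not pass. The difference between the sexes was not tested.

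**Figure D4:**
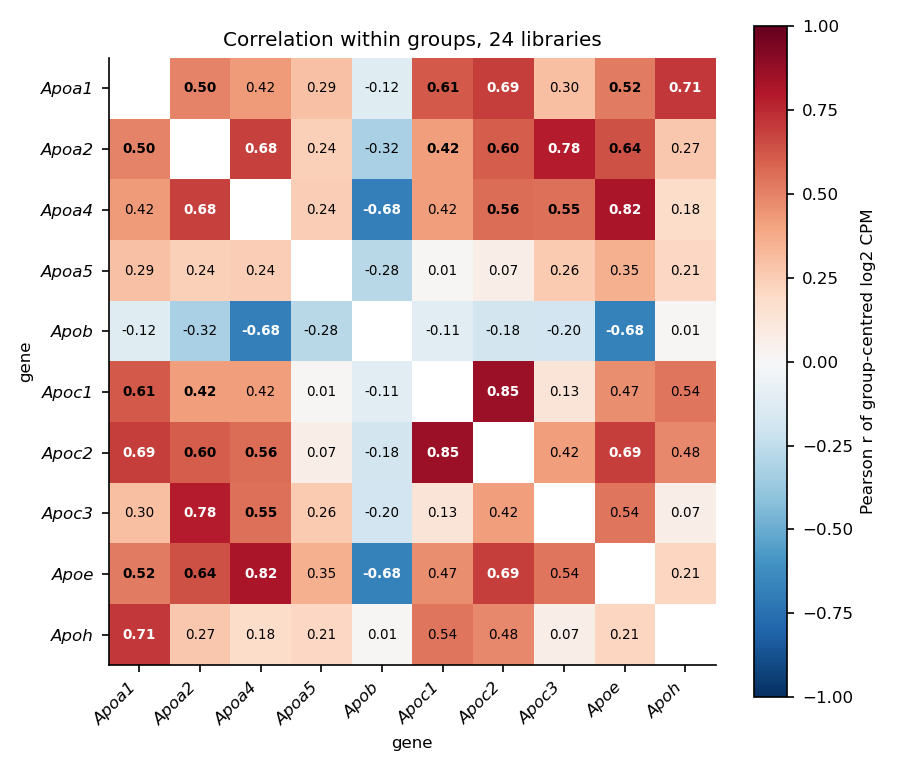
Pearson's r of group-centred log2 CPM for all pairs of the 10 genes over 24 libraries, with pairs that pass by adjusted permutation p in bold. Apoc1 with Apoc2 is at 0.85, Apob runs against Apoa4 and Apoe at −0.68 (−0.39 and −0.47, not passing, without animals 13 to 16), and the Apoa5 row holds no bold value.

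Some of this shared variation ran along the library axis, whose gene weights for each sex came from the other sex and include the members themselves. Group-centred Apoe had r = −0.91 and rho = −0.89 with the score over 24 libraries (permutation p = 1e-05 for each, the smallest that 100000 permutations can give, adjusted over 10 members to 0.0001). Without the 2 libraries farthest from the median score r was −0.90, it was −0.89 in females and −0.94 in males, and without animals 13 to 16 it was −0.88. Apoa4 (r = −0.77), Apob (r = 0.70), Apoa2 (r = −0.58) and Apoc2 (r = −0.56) also passed, and Apoa5 (r = −0.17), Apoh (r = −0.19), Apoc1 (r = −0.36), Apoc3 (r = −0.42) and Apoa1 (r = −0.44) did not. By sex, r was −0.85 in males and −0.25 in females for Apoa1, and −0.85 and −0.01 for Apoc3. With the score removed by regression, 2 of 45 pairs passed, Apoc1 with Apoc2 (r = 0.84) and Apoa2 with Apoc3 (r = 0.73). Of the 10 members Apoe had the largest absolute r with this axis, which no label names, and Apoa5 the smallest.

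Apoe levels, like scores on the library axis, were alike in animals with neighbouring numbers. Since Apoe followed the score (r = −0.91), this is not a separate observation. Odd numbers are males and even numbers females, and between a male and the female numbered next to it, group-centred Apoe had r = 0.80 and rho = 0.83 over 12 such pairs (permutation p = 0.00064 and 0.00067, adjusted over 10 members 0.0064 and 0.0067). Without the 2 pairs farthest from the median r was 0.74. The other 9 members did not pass, with r from −0.31 for Apoc1 to 0.53 for Apoa4. The labels give no meaning to neighbouring numbers, and the permutations over 24 libraries treat such animals as independent.

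**Figure D5:**
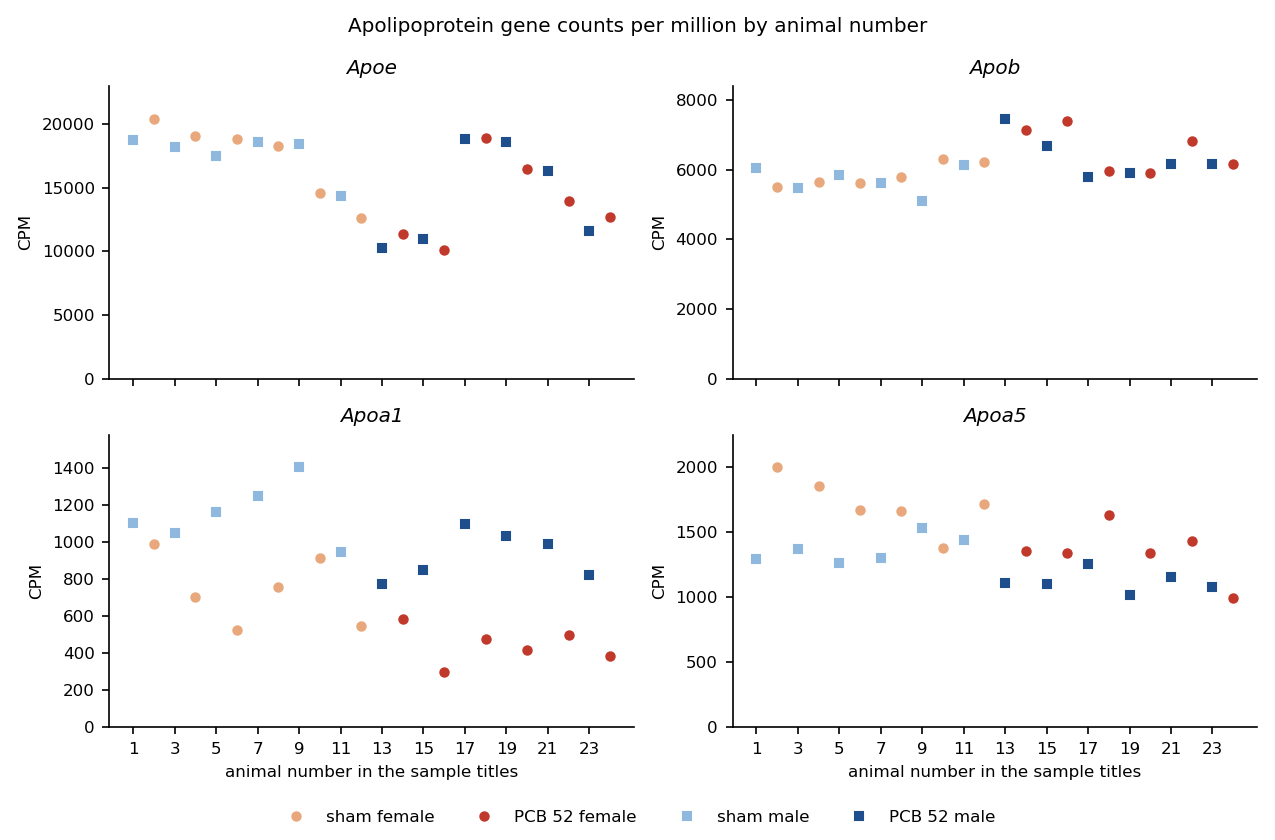
CPM of Apoe, Apob, Apoa1 and Apoa5 in each animal (circles females, squares males) against the animal number in the sample titles, sham animals 1 to 12 and PCB 52 animals 13 to 24. Apoe is at 10098 to 11356 CPM in animals 13 to 16 and at 16465 to 18926 CPM in animals 17 to 20, while Apoa5 ranges from 1099 to 1355 CPM and from 1018 to 1634 CPM in the same animals.

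Over all 10535 genes that passed the filter, the genes whose group-centred levels were most like Apoa5 over 24 libraries were Dolk (r = 0.75), Bmyc (0.74), Serpina3c (0.73), Imp3 (0.71) and Preb (0.71). Those most like Apoa1 were Hsd3b5 (r = 0.80), Pfdn5 (0.80), Cideb (0.79), Mpst (0.79) and Nudc (0.79). These r are the highest of many and are a description.

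Other genes of lipoprotein metabolism were followed in lists for particle assembly, lipases, receptors, HDL lipid loading and the factors that bind apolipoprotein promoters. In the exposure contrasts of both sexes 0 genes of any list passed. Among the 9 other apolipoprotein genes tested, 7 had a negative log2 fold in females and 5 in males, with medians of −0.06 and −0.03. Apoc4, the neighbour of Apoc1 and Apoc2, was at −0.29 ± 0.14 in females and −0.22 ± 0.13 in males, and Apom, an HDL protein that carries sphingosine-1-phosphate, at −0.21 ± 0.08 in males. Neither passed.

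Over the 14 particle assembly genes the median log2 fold was 0.03 (females) and 0.06 (males). A1cf, a cofactor of Apob mRNA editing, was at 0.30 ± 0.13 in females and 0.22 ± 0.11 in males and did not pass. HDL genes had medians of −0.11 and 0.02 over 12 genes. Lcat, the enzyme that Apoa1 activates, was at −0.18 ± 0.08 in females, and Abca1, the transporter that loads Apoa1 with lipid, at 0.24 ± 0.10. Of the 30 transcription factors tested 19 had a negative log2 fold in each sex, with medians of −0.07 in females and −0.05 in males. Over all genes tested the median was 0.00 in each sex. Usf1, which binds E-boxes, averaged −0.25 ± 0.07 over both sexes and Foxa3, a forkhead factor of hepatocytes, −0.34 ± 0.10, and neither passed, each with an edgeR adjusted p of 0.146. In males Esr1, the estrogen receptor, was at 0.48 ± 0.14 and Cebpa, a factor of hepatocyte genes, at −0.23 ± 0.10, each with an edgeR adjusted p of 0.829. Over the 19 other abundant secretory genes of liver the medians were −0.04 and −0.02.

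The lists were also compared between sham females and sham males, where 20.3% of all genes were called. Of 14 assembly genes 7 were higher in females and 2 lower, with Mttp, which loads lipid onto apolipoprotein B, at 1.12 ± 0.09 (488 against 221 CPM). Apobec1, the Apob mRNA editing enzyme, was at 0.88 ± 0.15 and Ces1d, a carboxylesterase, at −1.92 ± 0.32. Apob, whose protein Mttp loads and whose mRNA Apobec1 edits, was at 0.01. Of 12 HDL genes 8 were higher and 0 lower, among them the lysosomal cholesterol genes Lipa (0.93 ± 0.11), Npc2 (0.74 ± 0.09) and Npc1 (0.59 ± 0.10). Of 15 receptor genes 5 were higher and 0 lower. Cd36, a fatty acid and lipoprotein receptor was at 4.28 ± 0.36.

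Among the lipase genes, hepatic lipase, Lipc, was at 0.49 ± 0.09 and Angptl4 at 0.85 ± 0.17. Of the 9 other apolipoprotein genes 3 were lower and 0 higher, Apon (−1.51 ± 0.14), Clu (−0.61 ± 0.07) and Saa4 (−0.52 ± 0.12). Of 30 transcription factors 2 were higher, 1 of them Creb3l3 (0.55 ± 0.11), an activator of triglyceride clearance genes, and 4 were lower, 1 of them Foxa1 (−0.92 ± 0.17). Over the 19 secretory genes 3 were higher and 5 lower. Every gene named here passed with an edgeR adjusted p of at most 0.00153. Markers of Kupffer cells were higher in 8 of 11, with Csf1r at 0.45 ± 0.09, and their part in these differences was not tested.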

How the data were processed

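RNA of 24 rat livers was sequenced, 1 library per animal, and gene counts, 1 table for each sex, were deposited by the authors without normalization. Per the submitters' processing notes, FastQC, HISAT2 and the build rn6 were used. The counting tool, annotation and strand setting are not given in the sources used here, so reads of overlapping and antisense genes cannot be told apart. The labels' protocols name poly(A) capture or rRNA removal. Of 15319 Entrez IDs 15230 matched a symbol in a RefSeq table of GRCr8, and the 89 without one held at most 2.30% of a library's counts. Library totals of 6994832 to 9185511 counts limit precision by counting error, with no molecular identifiers known. Replicates of a group differed beyond sampling noise (lowest chi-square per degree of freedom 6.68), so no library was counted as a duplicate.

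Contrasts used edgeR 4.0.16 in R 4.3.3 with TMM factors, the robust quasi-likelihood test and filterByExpr (minimum count 10, minimum total 15), with Benjamini-Hochberg adjustment over all genes and a threshold of 0.05. Each exposure contrast was fitted within its sex, and the other 4 contrasts in 1 fit of 24 libraries. The procedure was also run on simulated counts. These were drawn independently for each library and without the library axis, so that run does not cover variation shared between animals. Replicates were numbered in accession order and pair no animals. Correlations used log2 CPM (prior count 2), centred in each group, with 100000 two-sided permutations within groups. The library axis is the first principal component of group-centred log2 CPM, and libraries of 1 sex were scored with gene weights from the other sex. Unless stated, scores of single animals and the covariate kept the group means, while correlations used scores without them. The members, lists and tests were chosen with earlier results of these data known. All 10 members are named. Of each list, up to 4 passing genes by smallest p are eligible to be named, or, where none passes, the 2 with the smallest p, and some genes that this rule selects are not reported here. Named beside these are the 5 genes most like Apoa5 and Apoa1, and the promoters of the Apoa1, Apoc3, Apoa4 and Apoa5 cluster that the table holds. Alternatives were RLE factors, other filters, DESeq2 1.42.0, limma-voom (limma 3.58.1) with quality weights, a non-robust fit, the axis score as a covariate, all libraries in 1 fit, and fits without animals 13 to 16 or without each library.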

Additional observations from a re-analysis of the deposited data

Results flagged for a closer look

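Of 40 sets of a gene and a group, 2 held a library far from the other 5 of its group, and chance flags about 1 in 20 such sets. Apoc2 in sham females was highest in replicate 1 (animal 2) at 852 CPM, with the others between 546 and 659 CPM, and the gap was 0.630 of the range against a critical value of 0.625. Apoe in sham males was lowest in replicate 6 (animal 11) at 14331 CPM, with the others between 17510.0 and 18753 CPM, and the gap was 0.719 of the range. Animal 11 had the highest library axis score of the sham males, 6.98.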

How the results depend on the processing

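The labels pair no animals and replicate numbers were given in accession order, so no paired fit was made, and a block on neighbouring animal numbers was not run. Genes passing in females were 0, but 28 by DESeq2, 1 with all 24 libraries in 1 fit, and 0 to 8 with single libraries left out (8 without PCB 52 female replicate 4, 1 without sham female replicate 5). In males the count was 0, and 1 by DESeq2. The average of both responses gave 0, 105 by DESeq2, and 0 to 15 with single libraries left out (15 without PCB 52 female replicate 4, 2 without sham female replicate 6, 1 without PCB 52 female replicate 3). The cause was not tested. The counts between the sexes stayed within 1.5 times. Pairs of members passing by r were 17, and 12 without animals 13 to 16, 14 in males alone, 3 in females alone and 2 after removal of the axis score. By both r and rho the counts were 16, 7, 13, 2 and 2 in the same order. The cause of these changes was not tested. All 1700 log2 folds of members under alternatives moved by less than the SD within groups (0.12 to 0.31 on the log2 scale). That rule is loose, since the SD can be about as large as the exposure fold itself. For Apoe in females the SD was 0.31 and the fold −0.32. A fold could shrink far toward 0 and still meet the rule. The sign of the exposure difference of Apoa1, Apoa5, Apoe and Apob held in each sex under every alternative run. Mean CPM moved by more than its SD for Apoh in both male groups (the other 78 means did not), with library sizes taken without the 10 members.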
